A study of Mus musculus with 11 samples.

Results

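The posterior Hox genes of paralogue groups 10 to 13 were followed across open neuroepithelium and closed neural tube of mouse embryos. The set was taken by name: Hoxa10, Hoxc10, Hoxd10, Hoxa11, Hoxc11, Hoxd11, Hoxa13, Hoxb13, Hoxc13 and Hoxd13. Of these 10 genes, 9 had at least 1 probe set annotated to that gene alone, out of 18193 genes so measured on the array. Hoxc11 was not analysed here. Expression was given as log2 signal, and where a gene had several probe sets the one with the highest mean over the 11 arrays leads. Levels of different probe sets are not comparable, so that only differences are set side by side between genes.

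The tissue came from C57BL/6 embryos, with no engineered allele or drug named in any group, and the groups were closed neural tube at E9.5 (n = 3), open neuroepithelium at E9.5 (n = 3), closed E8.5 tube (n = 2) and open E8.5 neuroepithelium (n = 3). Open neuroepithelium is the neural plate behind the point where the neural folds have met, and closed neural tube was cut from the stretch ahead of that point. All tissue was freed with pancreatin and trypsin, carried attached notochord, and was pooled by litter, so that an array stands for several embryos. The closed tissue lay ahead of the open tissue at each stage, and closure and axial position cannot be told apart. Likewise the junction between both tissues moves back along the body with age, and stage and axial position cannot be told apart. Enzyme treatment took 5 min at E8.5 and 8 min at E9.5, so stage and enzyme time cannot be told apart either.

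Hox genes encode homeodomain transcription factors that give cells their position along the body axis. They lie in 4 clusters, and within a cluster the genes are switched on one after the other, from the end that holds paralogue group 1 to the end that holds group 13. In the spinal cord the groups studied here mark lumbar, sacral and tail levels: groups 10 and 11 specify lumbar and sacral vertebrae and hindlimb motor neuron columns, and group 13 acts in the tail end, the digits and the urogenital tract. Genetic work in the mouse has placed Cdx factors, Gdf11 signalling and the nuclear receptor Nr6a1 upstream of the switch to this posterior part of the clusters.

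The start sites of the 6 members with an entry in the promoter table are shown: 4 belong to groups 10 and 11 and were high together in open E9.5 tissue, and the others are group 13 genes of the same clusters. Each sequence is the RefSeq window of 300 bases around the first start listed for promoters (GRCm38.p6), most of it upstream, on the gene's strand. For Hoxd10 that start lies inside the RefSeq gene, which begins at chr2:74684273, and no window at that position was listed. Capitals mark TTTAT or its reverse complement ATAAA, the core of the sequence bound by Cdx factors.
Hoxa10 (chr6:52240805-52241104, minus strand): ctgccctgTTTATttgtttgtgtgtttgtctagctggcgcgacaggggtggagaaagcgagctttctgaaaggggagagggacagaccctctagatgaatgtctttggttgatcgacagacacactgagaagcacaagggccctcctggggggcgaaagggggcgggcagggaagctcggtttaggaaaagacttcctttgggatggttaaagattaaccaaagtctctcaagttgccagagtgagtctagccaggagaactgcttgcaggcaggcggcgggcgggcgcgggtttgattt
Hoxd10 (chr2:74691641-74691940, plus strand): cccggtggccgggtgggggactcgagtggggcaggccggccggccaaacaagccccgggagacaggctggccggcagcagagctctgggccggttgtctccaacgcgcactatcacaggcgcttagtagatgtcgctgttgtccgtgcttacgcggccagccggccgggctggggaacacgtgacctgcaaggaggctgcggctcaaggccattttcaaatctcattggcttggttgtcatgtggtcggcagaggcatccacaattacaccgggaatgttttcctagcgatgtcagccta
Hoxa11 (chr6:52245761-52246060, minus strand): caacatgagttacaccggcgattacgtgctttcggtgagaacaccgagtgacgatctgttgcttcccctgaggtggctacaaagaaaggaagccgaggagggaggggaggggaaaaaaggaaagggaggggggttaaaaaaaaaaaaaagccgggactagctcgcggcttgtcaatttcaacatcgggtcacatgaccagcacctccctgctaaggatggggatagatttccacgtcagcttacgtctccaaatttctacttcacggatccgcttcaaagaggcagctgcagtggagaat
Hoxd11 (chr2:74679308-74679607, plus strand): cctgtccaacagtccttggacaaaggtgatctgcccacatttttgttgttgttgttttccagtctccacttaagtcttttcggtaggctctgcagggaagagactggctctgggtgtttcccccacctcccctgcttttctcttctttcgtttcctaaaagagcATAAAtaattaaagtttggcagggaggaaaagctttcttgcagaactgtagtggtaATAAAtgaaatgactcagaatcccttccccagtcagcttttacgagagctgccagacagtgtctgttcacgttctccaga
Hoxa13 (chr6:52260831-52261130, minus strand): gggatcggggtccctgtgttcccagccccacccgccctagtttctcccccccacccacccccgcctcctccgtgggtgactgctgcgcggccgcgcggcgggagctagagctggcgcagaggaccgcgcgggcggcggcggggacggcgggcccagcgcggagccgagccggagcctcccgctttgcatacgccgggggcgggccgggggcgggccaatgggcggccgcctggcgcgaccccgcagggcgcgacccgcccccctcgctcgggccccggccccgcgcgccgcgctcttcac
Hoxd13 (chr2:74667975-74668274, plus strand): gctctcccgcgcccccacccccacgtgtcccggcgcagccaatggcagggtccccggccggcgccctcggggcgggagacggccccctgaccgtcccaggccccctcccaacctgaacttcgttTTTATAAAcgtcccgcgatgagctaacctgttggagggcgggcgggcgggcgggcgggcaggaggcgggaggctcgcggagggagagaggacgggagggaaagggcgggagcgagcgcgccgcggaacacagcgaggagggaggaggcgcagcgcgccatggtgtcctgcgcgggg
RefSeq gave 8 such windows for these 6 genes, including another start each of Hoxa10 and Hoxd11. TTTAT, searched on both strands, occurred in 4 of the 8 windows: once at each Hoxa10 start, 2 times at the first Hoxd11 start, and 2 times at the Hoxd13 start, where both matches overlap each other. The windows of Hoxd10, Hoxa11 and Hoxa13 and the other Hoxd11 start held none, and 40% of 32851 mouse windows of this length hold at least 1. TGACAG, the core bound by Meis cofactors, occurred in none of the 8 windows and in 19.2% of all windows. The windows also differed in base composition. The Hoxa13 window was 81% G or C with 45 CpG pairs and the Hoxd13 window 74.3% with 37, against 45.7% to 62.7% and 4 to 25 CpG pairs in the 6 windows of groups 10 and 11. The median mouse window had 52.7% and 7 CpG pairs.

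Array quality and the labelled tissue were checked first. Median signal lay between 4.80 and 4.90 on all arrays, and the 40th percentile of all probe set means, 4.3, is called background level here. The excess of 3-prime over 5-prime signal of the control probe sets, a sign of RNA quality, was 2.20 and 2.48 in open E9.5 replicates 1 and 2 and 1.14 to 1.82 on the other 9 arrays. The mean of 6 neural progenitor genes was 8.37 to 8.89 on the open arrays and 9.81 to 10.26 on the closed arrays. Among the lists for other tissues, the 8 lateral plate and limb genes averaged 4.31 to 4.57 on all arrays, with Tbx4, Hand2 and Osr1 below background level in all 4 groups. Somite genes averaged 6.07 in closed E8.5 replicate 2 and 4.36 to 4.69 elsewhere.

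At E9.5 most posterior Hox genes were lower in closed tube than in open plate. Of the 9 measured members, 6 passed the threshold in that direction (adjusted p under 0.05, limma with Benjamini-Hochberg adjustment over all genes), where 4.2% of all genes were lower and 6.18% differed in either direction. These were all 3 genes of group 10, both measured genes of group 11, and Hoxd13. In the same 6 the closed arrays lay below all open arrays, which held for 11% of all genes. The member differences had a median of -1.95, against 0.01 over all genes. In tissue RNA, fewer expressing cells and less RNA per cell cannot be told apart.

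Hoxa10 (chr6:52231197-52240854, GRCm38.p6), a patterning gene of lumbar levels, had 6.49, 8.13 and 7.38 in closed E9.5 tube, 9.20, 9.51 and 9.73 in open E9.5 plate, 3.95 and 3.77 in closed E8.5 tube, and 4.57, 4.21 and 4.11 in open E8.5 plate. All 3 open E9.5 arrays lay above all closed E9.5 arrays, and both E9.5 groups lay far above the E8.5 groups, whose means were below background level. The E9.5 difference between closed and open was -2.14 (SE 0.31, adjusted p = 0.000857), or 4.42-fold lower in closed tube. The other Hoxa10 probe set was dim. It read 3.86, 3.93 and 3.89 in closed E9.5 tube and 4.38, 4.3 and 5.50 in open E9.5 plate, a difference of -0.84 in the same direction that did not pass (SE 0.24, adjusted p = 0.0978 over all probe sets).

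Hoxc10 (chr15:102966796-102971898), which takes part in motor neuron identity at lumbar level, had 8.94, 10.86 and 9.78 in closed E9.5 tube and 12.00, 11.73 and 12.13 in open E9.5 plate. It had 4.02 and 3.25 in closed E8.5 tube and 5.28, 5.39 and 5.39 in open E8.5 plate. None of the 4 groups overlapped, in the order open E9.5, closed E9.5, open E8.5 and closed E8.5, and each neighbouring pair in that order differed past the threshold. The difference at E9.5 was -2.09 (SE 0.36, adjusted p = 0.00301).

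Hoxd10 (chr2:74684273-74695106), which acts with Hoxc10 on hindlimb motor neurons, had closed E9.5 arrays far apart from each other. It read 3.70, 6.53 and 4.85 in closed E9.5 tube, 8.93, 9.54 and 9.27 in open E9.5 plate, 3.28 and 3.04 in closed E8.5 tube, and 3.20, 3.11 and 3.35 in open E8.5 plate. The open E9.5 arrays stood within 0.61 of each other, whereas closed E9.5 replicate 1 lay near the E8.5 values and replicate 2 was 2.83 above it. The E9.5 region difference was -4.22 (SE 0.49, adjusted p = 0.000131). It was -3.55 without closed E9.5 replicate 1, the array below background level, and -4.97 without closed E9.5 replicate 2.

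Hoxa11 (chr6:52242105-52245810), needed for sacral patterning and for limb and kidney development, had 4.26, 4.70 and 4.91 in closed E9.5 tube and 7.53, 8.03 and 8.54 in open E9.5 plate. At E8.5 it had 4.11 and 4.08 in closed tube and 4.29, 4.15 and 4.11 in open plate. The open E9.5 arrays lay far above all others, and closed E9.5 tube (4.63 ± 0.33, SD, n = 3) was just above background level. The E9.5 region difference was -3.41 (SE 0.22, adjusted p = 8.68e-07), or 10.6-fold lower in closed tube. Its antisense RNA Hoxa11os, which overlaps the Hoxa11 start in RefSeq and is no member of the set, had the same order of groups at E9.5 by its leading probe set: means of 3.63 ± 0.09 in closed E9.5 tube and 6.05 ± 0.81 in open E9.5 plate (SD, n = 3 each), a difference of -2.43 (SE 0.28, adjusted p = 0.000127). The other Hoxa11os probe set lay between 3.02 and 3.38 on all arrays, below background level. Hoxa11 and Hoxa11os are read by separate probe sets, and whether either detects the other strand was not tested.

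Hoxd11 (chr2:74679558-74687016), the Hoxd gene paired with Hoxa11 in sacral and limb patterning, had 4.11, 4.05 and 3.95 in closed E9.5 tube and 5.38, 5.73 and 6.85 in open E9.5 plate. It had 3.77 and 3.96 in closed E8.5 tube and 3.92, 3.64 and 4.23 in open E8.5 plate. Open E9.5 arrays were above all others, and the remaining 3 groups were below background level. The E9.5 region difference was -1.95 (SE 0.29, adjusted p = 0.000884).

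Group 13 was at or near background level, with 1 exception. Hoxa13 (chr6:52258853-52260880), a gene of digit and urogenital development, lay between 3.56 and 4.42 on all arrays, and Hoxb13 (chr11:96194316-96196610), a gene that limits tail length in the mouse, between 3.66 and 4.3. Both had all 4 group means below background level. Hoxc13 (chr15:102921131-102928814), known for its part in hair formation, lay between 4.10 and 4.64, with overlapping groups at E9.5. Its region difference there was -0.13 (SE 0.12, 95% interval -0.39 to 0.12, adjusted p = 0.675).

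Hoxd13 (chr2:74668225-74671603), the gene at the end of its cluster that acts in digit formation, was the exception by its leading probe set and not by the other. The leading probe set read 4.3, 4.26 and 4.40 in closed E9.5 tube and 5.13, 7.25 and 5.29 in open E9.5 plate. It read 4.39 and 4.13 in closed E8.5 tube and 4.39, 4.02 and 4.36 in open E8.5 plate. All 3 open E9.5 arrays were higher than the 8 others, and replicate 2, the array with the highest 3-prime excess, was the highest of them. The E9.5 region difference was -1.57 (SE 0.41, adjusted p = 0.0397), but -0.89 without open E9.5 replicate 2 (adjusted p = 0.00228). The call was lost with the 3-prime excess as a covariate (adjusted p = 0.0569) and when any open E8.5 or closed E9.5 array was left out (0.0539 to 0.128). The other probe set went the opposite way by a small amount, with 4.3, 4.48 and 4.37 in closed E9.5 tube and 4.04, 4.15 and 4.02 in open E9.5 plate. That is a difference of 0.32 (SE 0.10, adjusted p = 0.127 over all probe sets), with all closed arrays above all open ones, and the mean of both probe sets gave -0.63 (adjusted p = 0.174).

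**Figure D1:**
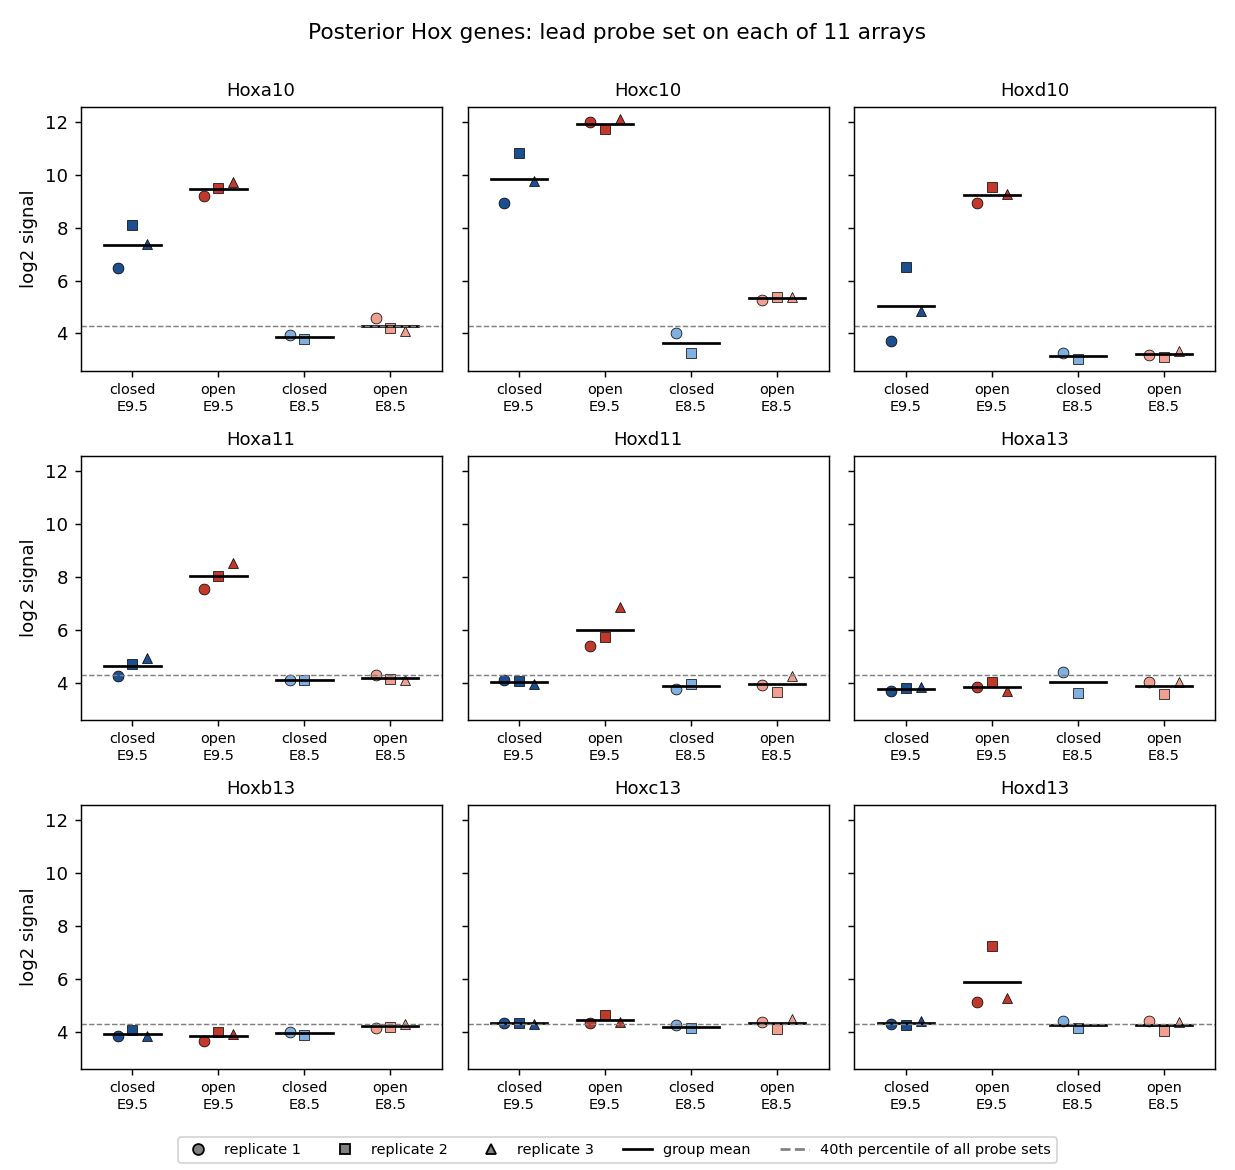
Log2 signal of the leading probe set of each of 9 posterior Hox genes (vertical axis) on 11 arrays in 4 groups (horizontal axis). Points are arrays, shaped by replicate number, short lines are group means, and the dashed line is the 40th percentile of all probe sets (4.3). Open E9.5 arrays stand above all others for Hoxa10, Hoxc10, Hoxd10, Hoxa11, Hoxd11 and Hoxd13, while Hoxa13, Hoxb13 and Hoxc13 lie near or below the dashed line in every group.

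**Figure D2:**
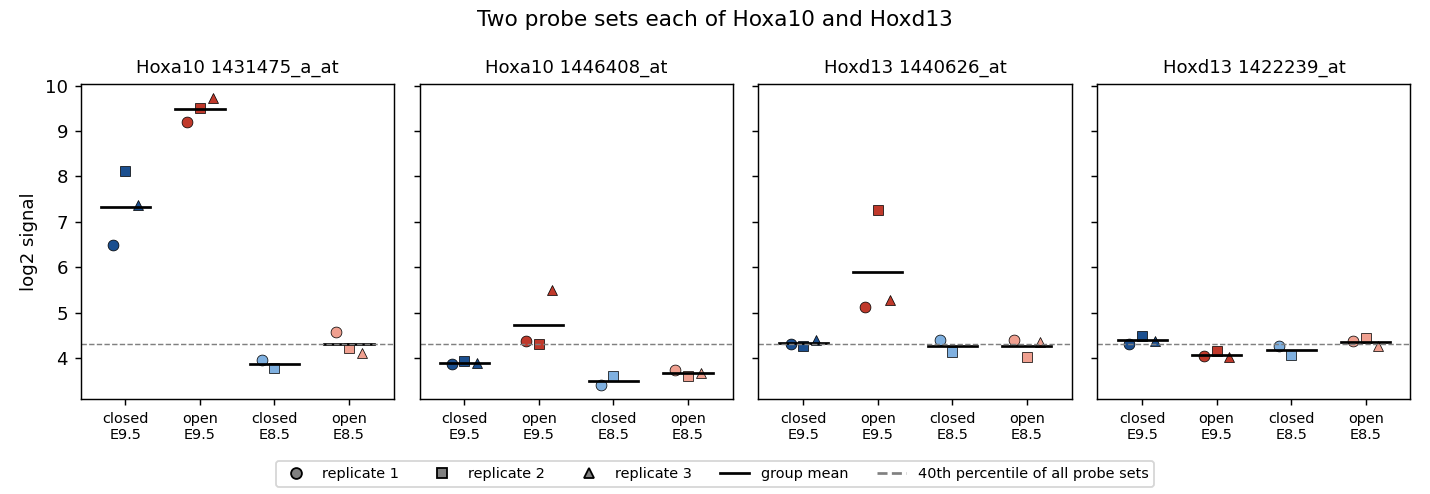
Log2 signal (vertical axis) of both probe sets of Hoxa10 and of Hoxd13 in the 4 groups (horizontal axis), with points, group means and the dashed 40th percentile line drawn for each array group. The Hoxa10 probe sets moved in the same direction in open E9.5 tissue with unequal size, whereas the second Hoxd13 probe set stayed between 4.02 and 4.48 with open E9.5 arrays below closed E9.5 arrays.

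At E8.5 nearly all of these genes were at or below background level in both tissues. Only Hoxc10 in open plate had a group mean clearly above background level, 5.35 ± 0.07 (SD, n = 3), against 3.63 ± 0.54 in closed tube (SD, n = 2). It was the 1 member of 9 lower in closed tube (2.46% of all genes were lower and 5.29% differed in either direction), with a difference of -1.72 (SE 0.41, adjusted p = 0.0258). That call was lost when any open E8.5 array was left out, with the difference at -1.70 to -1.76 and adjusted p between 0.069 and 0.0884. Leaving out either closed E8.5 array leaves 1 in that group, so only the size is given and no call is read from it. The difference was -1.34 without closed E8.5 replicate 2, the array with the highest mean of somite genes, and -2.11 without closed E8.5 replicate 1. The 7 members other than Hoxc10 and Hoxc13 had both group means below background level, and no difference is given for them. For Hoxc13 the difference was -0.14 (SE 0.13, adjusted p = 0.888). Members below background level can lack RNA or hold too little of it for the array to show.

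In open neuroepithelium the change with stage was large. As many as 6 of 9 members were higher at E9.5 than at E8.5, where 2.6% of all genes were higher and 3.68% differed in either direction. The differences were 6.60 for Hoxc10 (SE 0.36, adjusted p = 1.68e-06) and 6.03 for Hoxd10 (SE 0.49, adjusted p = 2.77e-05). They were 5.18 for Hoxa10 (SE 0.31), 3.85 for Hoxa11 (SE 0.22) and 2.06 for Hoxd11 (SE 0.29), with adjusted p between 1.68e-06 and 0.00126. Hoxd13 differed by 1.63 (SE 0.41, adjusted p = 0.0478), but by 0.95 without open E9.5 replicate 2 (adjusted p = 0.0034). Leaving out any array outside open E9.5 ended this call (0.0525 to 0.163), and with the replicate numbers as a random block within stage its adjusted p was 0.0595. With the 3-prime excess as a covariate the difference was 1.07 (adjusted p = 0.128), and the mean of both probe sets gave 0.67 (adjusted p = 0.171). For members whose E8.5 mean was below background level, background sets how large the fitted value can be, so these sizes are given in no order of strength. Markers of other cells moved with stage in open tissue as well: of 3 blood genes, the globin genes Hbb-bh1 (3.23, SE 0.54) and Hba-x (2.36, SE 0.28) were higher at E9.5, and of 5 surface ectoderm genes, Krt8 and Cdh1 were lower. Their part in these differences was not tested.

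In closed neural tube fewer members had moved. Hoxc10 was 6.23 higher at E9.5 than at E8.5 (SE 0.41, adjusted p = 5.51e-06) and Hoxa10 3.47 higher (SE 0.35, adjusted p = 0.000159). These 2 of 9 stand against 0.682% of all genes higher and 1.85% changed in either direction. Hoxd10 differed by 1.87 (SE 0.55, adjusted p = 0.158), by 2.53 without closed E9.5 replicate 1 (adjusted p = 0.0103) and by 1.12 without closed E9.5 replicate 2 (adjusted p = 0.196). Hoxa11 differed by 0.53 (SE 0.25, 95% interval -0.01 to 1.07, adjusted p = 0.592), and Hoxd11 stayed below background level at both stages.

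**Figure D3:**
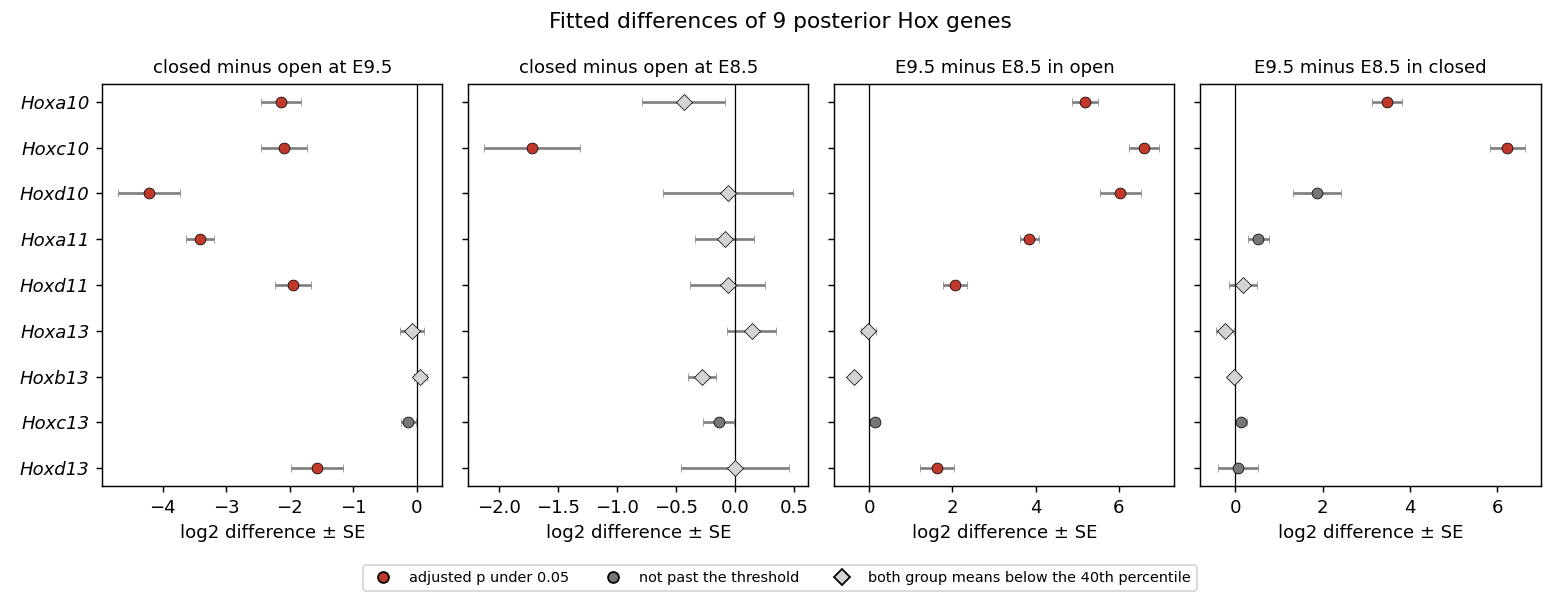
Fitted log2 differences with their standard errors (horizontal axes, a separate scale in each panel) of 9 posterior Hox genes (rows) in 4 comparisons. Red points passed an adjusted p of 0.05, dark grey points did not, and light diamonds mark members with both group means below the 40th percentile. The left panel shows 6 red points below 0 and the panel for stage in open tissue 6 above 0, while the panels for E8.5 and for stage in closed tissue hold 1 and 2.

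The region difference of some members itself changed between the stages. The interaction, closed minus open at E9.5 less the same at E8.5, was -4.16 for Hoxd10 (SE 0.74, adjusted p = 0.0196) and -3.32 for Hoxa11 (SE 0.33, adjusted p = 0.000508). These 2 of 9 compare with 0.759% of all genes with a lower and 0.962% with any interaction past the threshold. For both genes the E8.5 term is a difference between means below background level, so that the interaction largely repeats the E9.5 region difference. For Hoxa10 it was -1.71 (SE 0.47, adjusted p = 0.173) and for Hoxd11 -1.89 (SE 0.43, adjusted p = 0.0728). With the replicate number as a random block within stage, 4 members passed, where 437 of 18193 genes did, against 175 without the block. Hoxa10 at -1.67 (adjusted p = 0.0308) and Hoxd11 at -1.94 (adjusted p = 0.0134) joined the others. Without closed E9.5 replicate 2 Hoxa10 passed too (adjusted p = 0.0245), as did Hoxd11 without open E9.5 replicate 1 (0.0258) or 3 (0.00824). Hoxd10 lost its call when any of 7 arrays was left out, each of the E8.5 arrays among them, with adjusted p between 0.0512 and 0.0604. For Hoxc10 the interaction was -0.37 (95% interval -1.56 to 0.81), so that a change of its region difference of either sign was within the error.

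A further comparison set closed E9.5 tube against open E8.5 plate, since the junction moves back along the body with age. Whether the closed E9.5 stretch derives from the open E8.5 tissue sampled was not tested. Hoxa10 was 3.04 higher in closed E9.5 tube (SE 0.31, adjusted p = 5.83e-05) and Hoxc10 4.51 higher (SE 0.36, adjusted p = 7.55e-06). These were 2 of 9 members, where 2.29% of all genes were higher and 5.22% differed in either direction. Hoxd10 was 1.81 higher, with an adjusted p of 0.0562, of 0.0345 with the replicate number as a fixed block and of 0.0442 with it as a random block within stage. Without closed E9.5 replicate 1 it was 2.47 higher (adjusted p = 0.00246) and without closed E9.5 replicate 2 it was 1.06 higher (adjusted p = 0.075). This comparison shares arrays with those above, and its values are not independent of them.

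The closed E9.5 arrays were not alike for group 10. Replicate 2 was highest, then replicate 3, then replicate 1 for Hoxa10, Hoxc10 and Hoxd10, with ranges of 1.64, 1.92 and 2.83. The same genes ranged over 0.53, 0.39 and 0.61 in open E9.5 plate. Of the 6 measured genes of groups 8 and 9, Hoxd8 and Hoxd9 had this order of arrays too (ranges 0.62 and 1.17), while Hoxc8, Hoxa9, Hoxb9 and Hoxc9 did not. Hoxa11 put replicate 3 first. The 3-prime excess was 1.72, 1.44 and 1.20 in closed E9.5 replicates 1, 2 and 3, an order unlike that of the genes, and its part in the spread was not tested.

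**Figure D4:**
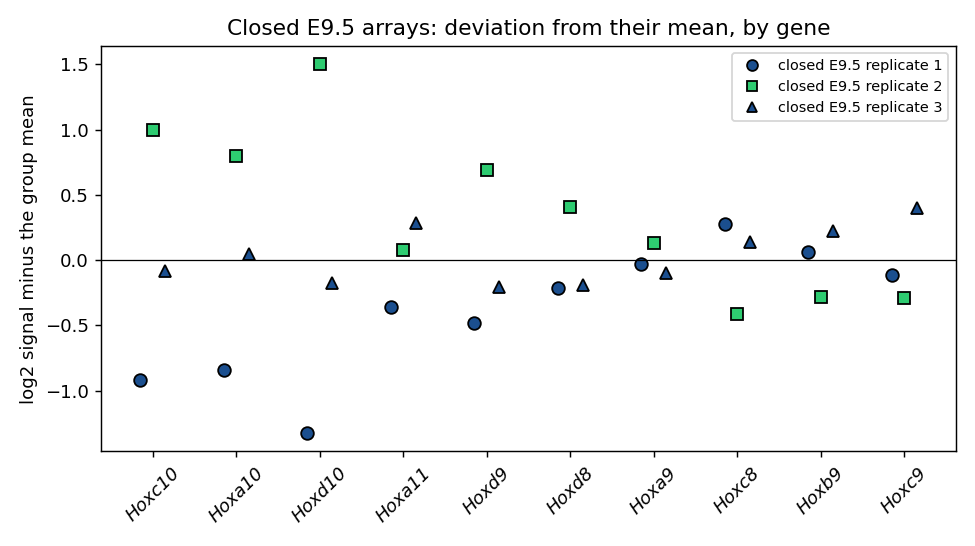
Deviation of each closed E9.5 array from the mean of the 3 (vertical axis, log2) for 10 Hox genes (horizontal axis), with point shape by replicate and replicate 2 in green. Replicate 2 is highest and replicate 1 lowest for Hoxc10, Hoxa10, Hoxd10, Hoxd9 and Hoxd8, and the order differs for the 5 others.

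Set beside the neighbouring groups of the clusters, the posterior genes differed between the regions mostly at another stage. The genes of groups 8 and 9 were lower in closed tube at E8.5 in 6 of 6 cases (median -2.45). At E9.5 this held for 2 of 6 (median -0.23), with Hoxb9 higher. Of all genes, 2.46% were lower at E8.5 and 4.2% at E9.5. The interaction of these 6 genes was positive in 5 of 6 past the threshold, for example 2.21 for Hoxa9 (SE 0.18, adjusted p = 0.000109). The 2 calls among the posterior genes were negative. Of 18193 genes, 37 had a positive and 138 a negative interaction past the threshold. Of 4 genes in groups 6 and 7, 2 were lower in closed tube at E8.5. At E9.5 0 of them passed in limma, with 0 at an unadjusted p under 0.05 as well. Hoxb7, 1 of the 4, was below background level in all 4 groups, where a difference may go unseen. At E9.5 both Hoxd genes of groups 8 and 9 were lower in closed tube, with differences of -1.40 for Hoxd8 (SE 0.21, adjusted p = 0.000904) and -1.77 for Hoxd9 (SE 0.31, adjusted p = 0.00327).

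**Figure D5:**
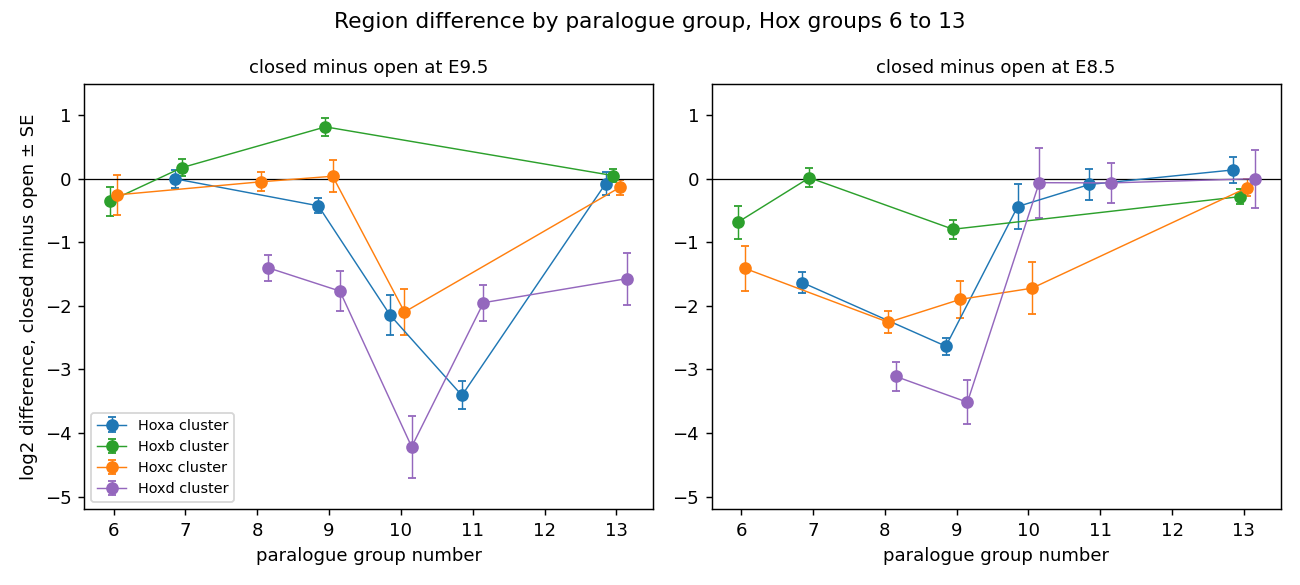
Log2 difference, closed minus open, with its standard error (vertical axis) against paralogue group number (horizontal axis) at E9.5 and at E8.5, with 1 line per Hox cluster. At E9.5 the lowest points are Hoxd10 (-4.22) and Hoxa11 (-3.41), and at E8.5 they are Hoxd9 and Hoxd8. Points of group 13 come from genes below or near background level, except Hoxd13 at E9.5, whose leading probe set was above it in open plate. Those of Hoxb7 and, at E8.5, most of groups 10 and 11 also come from genes below or near that level.

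Genes placed upstream of the posterior Hox genes also differed between the tissues. Of 16 measured regulators, 5 were lower and 2 higher in closed tube at E9.5, where 4.2% of all genes were lower and 1.98% higher. Nr6a1, a nuclear receptor that acts in the timing of trunk and tail formation in the mouse, was higher in closed tube by 2.32 (SE 0.19, adjusted p = 6.31e-06), with means of 11.06 in closed and 8.74 in open tissue. It was lower at E9.5 than at E8.5 in both tissues, with stage differences of -0.97 in closed tube (SE 0.21) and -3.51 in open plate (SE 0.19), and its interaction was 2.53 (SE 0.28, adjusted p = 0.00094). Acvr2a, a receptor for Gdf11 and activins, was higher by 0.84 (SE 0.14).

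The caudal homeobox factors Cdx2 (-2.05, SE 0.22) and Cdx4 (-2.02, SE 0.15) were lower in closed tube at E9.5, as were the growth factor genes Fgf8 (-3.59, SE 0.20) and Wnt3a (-1.07, SE 0.24) and the zinc finger gene Sall4 (-0.72, SE 0.09). Cdx1 was lower at E9.5 than at E8.5 in both tissues, with differences of -2.80 in closed tube (SE 0.48, adjusted p = 0.00891) and -2.95 in open plate (SE 0.43, adjusted p = 0.00184). Gdf11 itself differed by 0.08 at E9.5 (95% interval -0.15 to 0.31). Its means were 4.67 to 4.86 in the 4 groups, near background level, where a difference in RNA may go unseen. Of 8 cofactor genes that bind DNA with Hox proteins, 4 were higher in closed tube at E9.5, where 1.98% of all genes were higher: Meis1 (3.10, SE 0.18), Pbx3 (2.67, SE 0.24), Meis2 (2.22, SE 0.20) and Pknox2 (1.02, SE 0.20). At E8.5 nearly all posterior Hox genes were near background level in both tissues. Of the 8 cofactor genes, 3 were higher in closed E8.5 tube, where 516 of 18193 genes were higher. These were Meis1 (3.09, SE 0.20), Pbx3 (2.74, SE 0.26) and Meis2 (1.63, SE 0.22), while Pknox2 did not pass (0.58, SE 0.22). Cdx2 (-3.51, SE 0.25), Cdx4 (-2.85, SE 0.17) and Fgf8 (-4.37, SE 0.23) were lower in closed E8.5 tube, past the threshold. So were Wnt3a (-1.30, SE 0.27) and Sall4 (-0.75, SE 0.10), while Acvr2a was higher (0.79, SE 0.15). Of the 16 regulators, these were the 5 lower and 1 higher at E8.5, where 2.46% of all genes were lower. Mean Fgf8 in closed tube was 3.84 at E8.5, below background level, and 4.38 at E9.5, near it. Background limits how large its differences can be.

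Markers of neural progenitors and of neighbouring tissue also moved with the regions. At E9.5, 1.98% of all genes were higher and 4.2% lower in closed tube. Of the 6 neural progenitor genes, 5 were higher in closed tube at E9.5 (median 0.81) and 4 at E8.5 (median 1.06). Sox3 passed at neither stage, and Sox2 did not pass at E8.5. The 6 presomitic mesoderm genes averaged 4.93 to 5.04 on the closed E9.5 arrays and 5.94 to 6.42 on the open E9.5 arrays, with 3 of 6 lower in closed tube. Tbx6 and Ripply2 were below background level in closed E9.5 tube, and Ripply2 also in open E9.5 plate. At E8.5 the same list averaged 4.69 to 4.85 in closed tube and 6.31 to 6.59 in open plate, where 7 posterior members were below background level. Of 5 surface ectoderm genes, 3 were lower in closed E9.5 tube: Epcam (-2.03, SE 0.30), Grhl3 (-1.72, SE 0.20) and Cdh1 (-0.60, SE 0.12). Both E9.5 means of Cdh1 were below background level. Krt8 (0.51, SE 0.23) and Krt18 (0.01, SE 0.21) did not pass. Of 4 endoderm genes, Foxa1 was lower (-0.80, SE 0.17), and of 3 notochord genes, Foxa2 (0.87, SE 0.21) and Shh (0.74, SE 0.13) were higher. Chrd went the other way and did not pass (-0.35, SE 0.13). At E8.5 Shh (-0.89, SE 0.14) and Chrd (-0.72, SE 0.14) were lower in closed tube, and Foxa2 (0.59, SE 0.23) did not pass. The part of RNA from these tissues in the E9.5 differences was not tested.

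The genes most alike in pattern were sought by Pearson correlation over the 11 arrays among 972 genes that ranged by at least 1 between group means. The arrays share their 4 groups, so that any gene high in open E9.5 tissue scores well, and no p is given. For Hoxa10 the closest were Smug1 (r = 0.97), Acaa2 (0.97) and Pde9a (0.97), and for Hoxc10 Pde9a (0.97), 6330403K07Rik (0.97) and Acaa2 (0.96). For Hoxd10 they were Lemd3 (0.97), Rnf182 (0.97) and Igtp (0.97). Hoxa11 was closest to Ugt8a (0.99), Galt (0.98) and Dync1i1 (0.98), and Hoxd11 to Gjb6 (0.95), Slc29a3 (0.94) and Galt (0.93). Hoxd13 and Hoxc13 had lower values, led by 4933431E20Rik (0.90) and Atp10a (0.81). With Spearman's correlation at most 1 of the 3 genes of each member stayed among its 3 closest.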

How the data were processed

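RNA of 4 groups was measured on whole-genome Affymetrix mouse arrays. Per the labels, enzyme treatment (pancreatin at 2.5%, trypsin at 0.5%) took 5 min at E8.5 and 8 min at E9.5, litters were pooled (111 embryos in all), and 50 ng of RNA was labelled. Of 12 arrays the authors left out 1 of closed E8.5 tissue for its quality, per the labels. The deposited log2 values of 45101 probe sets (2.37 to 14.717) were used as deposited. The submitters' processing notes name MAS5 with no version or role, so background correction and normalization of these values are not known. The number of arrays per group is one limit on precision.

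Probe sets with exactly 1 symbol in the platform annotation (34945) were kept, and those with several (932) or none (9160) and 64 control probe sets were not used. The 4 group means were fitted for 18193 genes, with no intensity filter, by limma (version 3.58.1, R 4.3.3, empirical Bayes with an intensity trend, 7 residual degrees of freedom). The threshold was a Benjamini-Hochberg adjusted p of 0.05 over all genes. The fit was tested on simulated data with independent noise on each array. The real arrays had correlated deviations, described below, which that test does not cover. Promoter windows were read with Python 3.11.15.

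A difference is printed for a member where a compared group mean reached the 40th percentile of probe set means. Regulators and cofactors past the threshold at E9.5 and the 3 most correlated genes per member are named. Hoxa11os, Hoxd12, Cdx1, Gdf11 and genes of groups 8 and 9 were singled out after their values were seen. The members and lists were chosen with earlier results of these data known. Open and closed arrays of the same replicate number had correlated deviations from their group means over 13338 genes (E8.5: 0.576, 0.697; E9.5: 0.308, 0.341, 0.687). Some pairs of different number came near these values (0.309 for closed 1 with open 3 at E8.5, 0.317 for closed 1 with open 2 and 0.264 for closed 2 with open 1 at E9.5). All same-numbered pairs were positively correlated, and the numbers were treated as pairing arrays in a block, as an alternative to the fit without it. With 2 closed E8.5 arrays, the deviations of replicate 2 are those of replicate 1 with the sign turned. At E9.5 replicates 1 and 2 correlated across numbers about as well as within them. The pairing is therefore not settled by these values. The labels call the arrays biological replicates and do not say whether open and closed tissue share litters. Alternatives tried were quantile normalization, median centring, filters at the 40th and 60th percentile, mean of probe sets, every probe set, no intensity trend, robust variances, array weights, only the groups compared, replicate blocks, a limit of 1 on the log2 difference, the 3-prime excess as covariate, and arrays left out.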

Additional observations from a re-analysis of the deposited data

Results flagged for a closer look

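The region difference of Hoxd10 changed between the stages by -4.16 (log2, closed minus open at E9.5 less the same at E8.5; limma interaction, SE 0.74, adjusted p = 0.0196). Closed arrays were lower than all open arrays in 3 of 3 cases at E9.5, and the groups overlapped near background level at E8.5. The region difference of Hoxa11 changed by -3.32 (SE 0.33, adjusted p = 0.000508), again with 3 of 3 closed E9.5 arrays below all open E9.5 arrays and overlapping groups at E8.5. At E8.5 both genes had means below background level in both tissues, so that these values largely repeat the E9.5 region differences. Both were singled out because the test of the difference between stages passed the threshold. Single arrays were not screened for outlying values, as no group holds 4 arrays.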

How the results depend on the processing

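A filter at the 60th percentile leaves 2 of the 9 members in the test. Counts past the threshold then were 2 for region at E9.5, 2 for stage in open tissue and 0 for the interaction, by construction of the filter. With array weights 0 members passed for region at E8.5 (Hoxc10 adjusted p = 0.0656). With the replicate block within stage (random block) 4 members and 437 of all genes passed for the interaction. With the number as fixed block, Hoxd11 also passed for the interaction (-2.07, adjusted p = 0.0223). Apart from these, Hoxd13 in open tissue and Hoxd10 in closed E9.5 against open E8.5, the replicate block changed no main member call. With single arrays left out, member counts were 5 to 6 for region at E9.5, 0 to 1 at E8.5, 5 to 6 for stage in open tissue, 2 to 3 in closed tissue, 1 to 3 for the interaction, and 2 to 3 for closed E9.5 against open E8.5.

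Signs turned for members near background level or far from the threshold. The Hoxc13 interaction was -0.0364 with quantile normalization, -0.0158 with median centring, -0.00662 with the number as a fixed replicate block, -0.0294 with the random block, and -0.0799 to 0.113 with single arrays left out. Hoxd13 in closed E9.5 against open E8.5 was -0.10 with the 3-prime excess as covariate and -0.0569 to 0.128 with single arrays left out. With single arrays left out, the Hoxc10 interaction was -0.874 to 0.0843, Hoxc13 in closed E9.5 against open E8.5 -0.113 to 0.0793, and Hoxd13 with stage in closed tissue -0.0739 to 0.189.

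The Hoxd13 region call at E9.5 was kept under quantile normalization, median centring, array weights and both replicate blocks, among others. It was lost in further settings, with an adjusted p of 0.0684 with every probe set tested, 0.0512 without an intensity trend and 0.111 with only the groups compared. The arrays of highest 3-prime excess were open E9.5 replicates 1 and 2. Leaving out both left 1 open E9.5 array, and the Hoxd10 interaction was then -4.18. All genes past the threshold for region at E9.5 numbered 1124, but 2721 with array weights and 2112 with the random replicate block. They numbered 1759 with the covariate and 465 with a limit of 1 on the log2 difference. The causes were not tested. Signal near background level limits what can be said of group 13 and of E8.5 tissue.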

Other observations

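The even-skipped homeobox genes flank the clusters beyond group 13: Evx1 lies beyond Hoxa13 and Evx2 beyond Hoxd13. Evx1 was lower in closed tube at both stages, with differences of -4.14 at E9.5 (SE 0.21) and -4.81 at E8.5 (SE 0.23), with means of 6.18 in closed and 10.32 in open tissue at E9.5 and of 5.31 in closed and 10.12 in open tissue at E8.5. Evx2 differed by 0.09 at E9.5 (95% interval -0.27 to 0.46), with low means of 5.08 to 5.17 in all 4 groups. Hoxd12, between Hoxd11 and Hoxd13 and outside the set, had group means of 3.54 in closed E9.5 tube, 3.68 in open E9.5 plate, 3.71 in closed E8.5 tube and 3.70 in open E8.5 plate, all below background level.

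Of 19 Polycomb and Trithorax genes, whose products keep Hox clusters off or on, 2 were higher and 1 was lower in closed tube at E9.5. Their median difference was 0.06. Of all genes, 1.98% were higher and 4.2% lower.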
